A study of Mus musculus with 7 samples.

Results

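The promoters of 10 genes of glucose uptake, glycolysis and glucose sensing were examined in DNase-Seq of mouse podocytes. The genes were *Slc2a1*, *Slc2a3* and *Slc2a4*, *Hk1*, *Hk2* and *Gapdh*, and *Txnip*, *Arrdc4*, *Mlxip* and *Mlxipl*. Their peaks were all those that overlapped 500 nt on either side of any of the 40 protein-coding TSSs which GENCODE vM21 gives for them, out of 54374 TSSs of 21866 genes. These were 27 of 1036304 peaks under NG, 23 of 846027 under HG+NT and 22 of 900109 under HG+miR-93. *Hk1*, with its many starts, had 11, 9 and 9 of them, and the others from 1 to 4. Each of the 10 genes had at least 1 such peak in every condition, as did 21835 protein-coding genes in all. The lists kept regions with a p of up to 0.9. They covered 2554.8 Mb under NG, 2599.9 Mb under HG+NT and 2584.7 Mb under HG+miR-93. An overlap with a peak is therefore no sign in itself of an open promoter.

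The cells were differentiated, immortalised mouse podocytes in culture, so the values describe a cell line and not the kidney. After growth arrest in reduced serum they were kept for 36 h in normal glucose of 5 mM (NG), in high glucose of 25 mM with 50 nM of a nontargeting mimic (HG+NT), or in the same high glucose with 50 nM of a miR-93 mimic (HG+miR-93). There were 2 replicates of each, and 1 sample of genomic DNA was the input. NG cells are not described as transfected, so that glucose and transfection cannot be told apart between NG and HG+NT. The authors deposited 1 joint list of peaks per condition, and no spread between replicates can be had from it. No test between conditions was therefore run, and the errors given are 95% exact Poisson intervals of the fragments counted, which leave out the variation between cultures.

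Glucose enters cells through the facilitative GLUT transporters encoded by *Slc2a* genes, is trapped by hexokinases as glucose 6-phosphate and is broken down by glycolysis. *Mlxip* and *Mlxipl* encode the glucose-sensing factors MondoA and ChREBP, which bind carbohydrate response elements together with Mlx when glucose phosphates rise. *Txnip* is a classical target of both factors, and its protein TXNIP, an inhibitor of thioredoxin, restrains glucose uptake. *Arrdc4* encodes a related arrestin with a similar response to glucose. Podocytes take up glucose by GLUT1 and GLUT4, and TXNIP is among the transcripts that high glucose induces in many kidney cells.

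The depth of the lists differed. From the fold and p of the peaks, NG rested on 2.239 times, HG+NT on 3.851 times and HG+miR-93 on 5.146 times the fragments of the input. The fragments at a summit times the scale of the list are called its pileup, whose unit is a fragment at input depth. Such values pool many cells, in which more open cells and more cutting per cell cannot be told apart. Over the 21835 genes, the strongest promoter peak by fold had a median pileup of 4.91 under NG, 4.67 under HG+NT and 4.66 under HG+miR-93. A −log10 q above 0 was given to this peak at 401, 480 and 24 of the genes, so that nearly all promoter peaks lay below any usual significance. As a check of the label, 8 podocyte genes fixed as markers had median pileups of 6.25, 5.97 and 5.54. For 8 genes of other cell types these were 4.02, 4.67 and 4.86. By fold the check was weaker. The median percentile of the podocyte genes among promoters was 67.0, 71.7 and 67.8, and that of the others 40.6, 69.3 and 70.7. The sets were thus close under HG+NT, and the podocyte genes were the lower under HG+miR-93. Among the podocyte genes *Actn4*, which encodes an actin crosslinker, stood high with 10.7, 11.4 and 9.13, while the transcription factor gene *Tcf21* had 4.47, 3.64 and 3.89, below the median promoter in every list. Of the other cell types, the leukocyte gene *Ptprc* was lowest, with 2.68, 2.34 and 1.36, and none of these 8 genes passed 8.93, the NG value of *Lrp2*. Values in threes follow the order NG, HG+NT, HG+miR-93 throughout.

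RefSeq promoter sequences of the GRCm38.p6 assembly, from 250 bases before to 50 after a start, were found for 8 of the 10 genes; *Slc2a3* and *Slc2a4* had no entry. The upstream parts of 6 are shown, and this choice does not show whether motifs go with peaks. For 5 the strongest peaks described next overlapped them in all 3 lists. That of *Mlxipl*, at the RefSeq start beside its first GENCODE TSS, held none of the motifs and had its strongest peaks elsewhere. Bases are numbered from the RefSeq start, and exons of protein-coding genes were left out. Capitals mark matches to CACGTG (the E-box), GGGCGG (the SP1 box) and CCAAT (the CCAAT box) on either strand, and to the pair of boxes of the carbohydrate response element.
Txnip, chr3:96557707-96557956, plus strand, bases -250 to -1: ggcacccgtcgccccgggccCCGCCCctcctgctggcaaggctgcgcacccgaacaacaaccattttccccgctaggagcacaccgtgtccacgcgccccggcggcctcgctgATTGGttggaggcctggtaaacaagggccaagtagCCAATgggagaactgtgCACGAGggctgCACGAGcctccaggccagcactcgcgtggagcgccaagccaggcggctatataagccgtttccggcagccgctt
Arrdc4, chr7:68749242-68749488, minus strand, bases -250 to -4: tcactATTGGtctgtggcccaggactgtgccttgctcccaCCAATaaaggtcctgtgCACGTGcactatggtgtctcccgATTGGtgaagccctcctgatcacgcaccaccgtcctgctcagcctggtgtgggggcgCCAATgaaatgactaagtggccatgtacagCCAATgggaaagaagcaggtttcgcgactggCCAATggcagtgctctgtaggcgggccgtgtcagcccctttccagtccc
Slc2a1, chr4:119108495-119108710, plus strand, bases -250 to -35: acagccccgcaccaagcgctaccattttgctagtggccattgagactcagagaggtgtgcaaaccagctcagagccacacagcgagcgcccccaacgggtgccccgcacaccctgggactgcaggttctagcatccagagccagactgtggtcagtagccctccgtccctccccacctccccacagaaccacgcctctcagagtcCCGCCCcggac
Hk2, chr6:82774455-82774704, minus strand, bases -250 to -1: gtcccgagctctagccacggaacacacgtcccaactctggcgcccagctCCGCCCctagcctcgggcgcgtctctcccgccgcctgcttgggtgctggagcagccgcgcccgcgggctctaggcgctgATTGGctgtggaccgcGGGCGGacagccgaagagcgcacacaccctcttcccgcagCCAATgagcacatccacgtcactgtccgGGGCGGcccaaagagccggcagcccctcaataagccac
Mlxip, chr5:123394548-123394797, plus strand, bases -250 to -1: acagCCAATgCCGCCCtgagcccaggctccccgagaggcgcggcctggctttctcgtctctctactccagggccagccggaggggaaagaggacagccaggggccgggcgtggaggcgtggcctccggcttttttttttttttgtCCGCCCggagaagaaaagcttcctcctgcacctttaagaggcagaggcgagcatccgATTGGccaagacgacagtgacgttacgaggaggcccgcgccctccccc
Mlxipl, chr5:135106641-135106890, plus strand, bases -250 to -1: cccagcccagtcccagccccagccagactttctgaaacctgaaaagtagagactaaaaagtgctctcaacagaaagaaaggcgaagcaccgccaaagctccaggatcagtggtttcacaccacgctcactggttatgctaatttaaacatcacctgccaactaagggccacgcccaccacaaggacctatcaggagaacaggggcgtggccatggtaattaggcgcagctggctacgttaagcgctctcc

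The carbohydrate response element was searched as 2 CACGTG boxes 5 bases apart, with at most 2 mismatches among the 12 letters of the boxes. *Txnip* held the only match among the 10 windows of these 8 genes, at bases -85 to -69 upstream of its start and with 2 mismatches, between a CCAAT box at -102 to -98 and the start. Such a match was present in 0.954% of 32817 promoter windows of the same length, and one with at most 1 mismatch in 0.0701%. *Arrdc4* held a single CACGTG, at -193 to -188, a motif found in 7.15% of all windows, together with 6 CCAAT boxes. The letters ACGTG, which are part of every CACGTG and form the core bound by hypoxia-inducible factors, were present in 19.6% of all windows and at *Slc2a1*, *Hk2*, *Gapdh*, *Arrdc4*, the downstream start of *Hk1* and the upstream RefSeq start of *Mlxipl*. GGGCGG occurred in 35.6% and CCAAT in 37.4% of all windows, and *Slc2a1*, *Hk2*, *Mlxip*, *Txnip* and the upstream start of *Mlxipl* held both. Motifs and strong peaks did not always go together. The windows of *Gapdh* and of the downstream start of *Hk1*, not shown, held none of the motifs marked above. Their strongest peaks overlapped these windows in every list, with pileups of 10.3, 9.09 and 8.55 and of 8.93, 14.3 and 9.72. The upstream window of *Mlxipl* held some of the marked motifs, under peaks of 5.36, 4.41 and 3.5. A match of letters is a description of the sequence and not of a bound factor.

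A cut at the 75th percentile by pileup divided the promoters into a pair of sets. *Slc2a1*, *Hk1*, *Hk2*, *Gapdh*, *Txnip*, *Arrdc4* and *Mlxip* ranked above the 75th percentile of promoters in all 3 lists, a position held by 14.1% of all 21835 genes. *Slc2a3*, *Slc2a4* and *Mlxipl* did so in no list. The sets adjoin at the cut, with *Slc2a4* at 72.0 under HG+NT and *Hk1* and *Hk2* at 77.0 under NG. Counting intervals overlapped across it, as under NG for *Slc2a4* (2.77 to 9.36) and for *Hk1* and *Hk2* (5.46 to 13.8). The split holds for the pileup, which is not divided by the input. The median local mean of the input was 3.0, 3.0 and 2.9 at the 10 genes and 2.0 over all genes in each list. By fold, 3 of the 10 genes, *Slc2a1*, *Hk2* and *Mlxip*, ranked above the 75th percentile in all lists, against 7.4% of all genes. At the 7 genes every summit lay within 353 nt of a TSS, whereas at the other 3 genes 4 of 9 summits did.

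**Figure D1:**
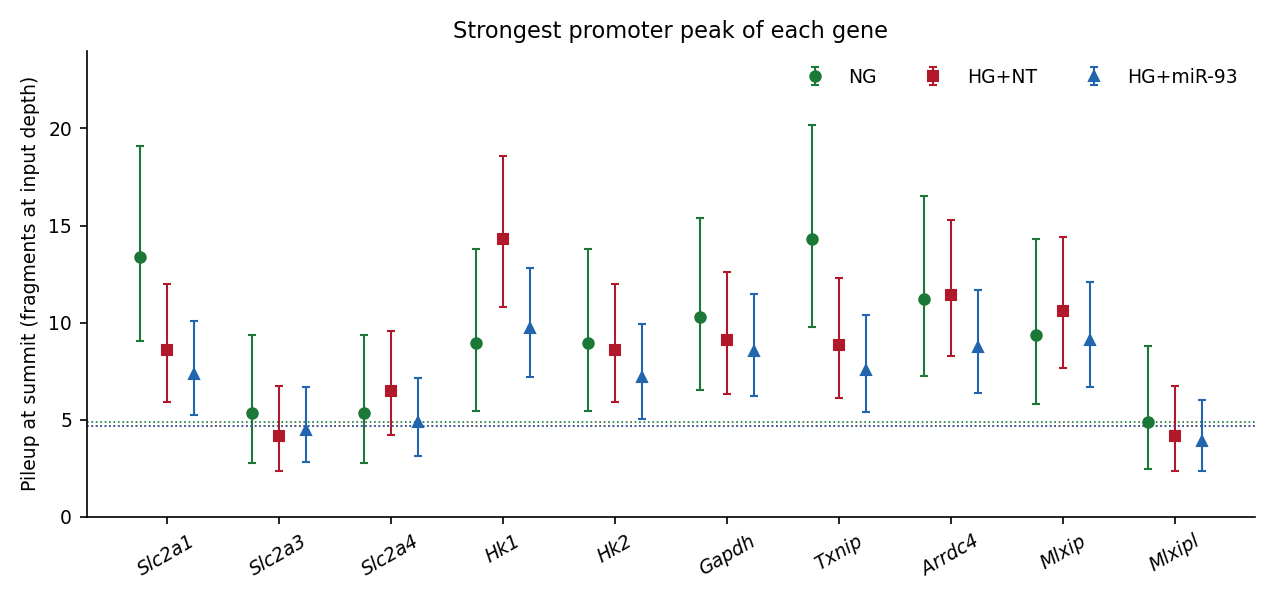
Pileup at the summit of the strongest promoter peak of each gene (y axis, fragments at input depth) under NG, HG+NT and HG+miR-93; bars are 95% exact Poisson intervals of counting error and dotted lines the median of all promoters in each list. The values of *Slc2a3*, *Slc2a4* and *Mlxipl* lie between 3.89 and 6.49, those of the other 7 genes between 7.19 and 14.3, and the 3 intervals of each gene overlap.

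*Slc2a1* encodes GLUT1, the basal glucose transporter of most cells, and lies on the plus strand of chromosome 4, from 119108711 to 119137983. The pileup was 13.4 under NG (interval 9.04 to 19.1), 8.57 under HG+NT (5.90 to 12) and 7.38 under HG+miR-93 (5.23 to 10.1). The NG value was the highest and the intervals of all 3 overlapped. The authors' fold over the input was 3.6, 2.99 and 2.10, at percentiles of 98.3, 96.5 and 77.9 among promoters. Under NG its −log10 q was 0.449, the only one above 0 among the 27 NG peaks of these genes. The summits lay 9, 166 and 108 nt downstream of the nearest TSS, in an untranslated exon under NG and in an intron in the others.

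*Slc2a3* and *Slc2a4* encode GLUT3, the transporter of neurons with a high affinity for glucose, and GLUT4, which insulin moves to the surface of muscle and fat cells. At *Slc2a3* (chromosome 6, 122727809 to 122801640, minus strand) the pileup was 5.36 (2.77 to 9.36), 4.15 (2.37 to 6.75) and 4.47 (2.83 to 6.71), close to the median promoter of each list. In each list the nearest TSS of this peak was an internal one, at 122742262. Peaks at the first TSS, 122801640, had 3.13 and 3.57 under NG, 4.41 under HG+NT, with its summit 16006 nt away, and 4.47 under HG+miR-93. The percentile of *Slc2a3* by fold was 30.2, 73.1 and 25.5. The input's local mean was 1.44 at the HG+NT summit against 3.0 at the other summits, which enters the fold, and the summits were 917, 2265 and 114 nt from a TSS under HG+NT, NG and HG+miR-93. The rank by fold thus compared different places, and by pileup HG+NT was the lowest of the 3. At *Slc2a4* (chromosome 11, 69942539 to 69948188, minus strand) the pileup was 5.36 (2.77 to 9.36), 6.49 (4.2 to 9.58) and 4.86 (3.14 to 7.17). The fold of *Slc2a4* was 2.56, 1.87 and 1.72, at percentiles of 84.4, 58.6 and 52.9, so that from NG to HG+NT it was lower by fold and higher by pileup. By fold it ranked under NG above *Mlxip*, *Txnip*, *Gapdh* and *Hk1*. The summits were 146 nt inside the gene for NG, in an untranslated exon, and 771 and 147 nt upstream for the others.

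*Hk1* and *Hk2* encode the hexokinases that start glycolysis, HK1 in most tissues and HK2 in insulin-responsive and growing cells. *Hk1* is on the minus strand of chromosome 10, from 62268855 to 62379908. The strongest peak had a pileup of 8.93 under NG (5.46 to 13.8), 14.3 under HG+NT (10.8 to 18.6) and 9.72 under HG+miR-93 (7.21 to 12.8). HG+NT was thus the highest, with intervals that overlapped those of both other lists. The fold was 1.99, 3.82 and 3.15, at percentiles of 58.2, 99.2 and 98.9, with local means of the input of 4.0, 3.0 and 2.4. The HG+NT peak had a −log10 q of 1.13, the only one above 0 among the 23 HG+NT peaks of the 10 genes.

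*Hk1* has 10 protein-coding TSSs, and the strongest peak belonged to the same one in each list, 39366 nt downstream of the first, with summits 63, 221 and 284 nt beyond it in an untranslated exon. The other *Hk1* promoter peaks had lower pileups than this one, though not all were low among promoters. The highest of them, 6.23 under HG+NT, had a fold of 2.26, where the medians over all genes were 4.67 and 1.74. The pileups of these other peaks ranged from 2.68 to 4.02 over 10 peaks under NG. They ranged from 2.86 to 6.23 over 8 under HG+NT and from 2.72 to 5.05 over 8 under HG+miR-93. At the first start the pileup was 3.57 under NG and 3.90 under HG+NT, with summits 628 and 665 nt downstream of that start. The HG+miR-93 peak that covered it had 4.66, with its summit 3256 nt downstream and nearer to another TSS. With the summit nearest to any TSS in place of the highest fold, the percentiles of *Hk1* were 40.5, 34.8 and 56.7, so that its rank depended on which peak stood for it. The base composition of the starts also differed: the window at the first RefSeq start held 1 CpG and that at the downstream RefSeq start 20, where the median of all windows was 7.

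**Figure D2:**
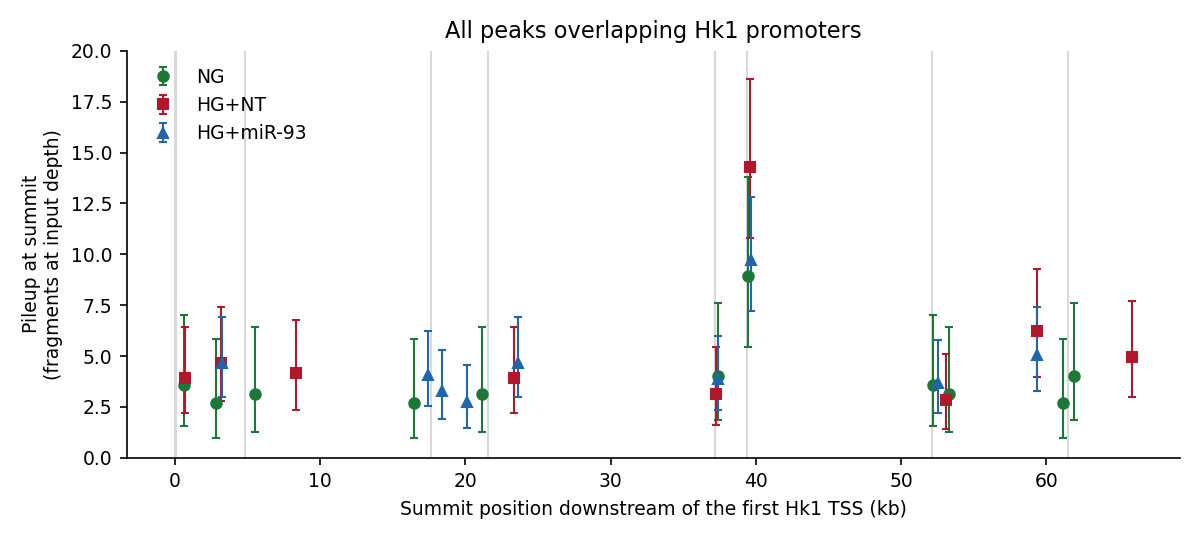
Pileup (y axis, fragments at input depth) of every peak that overlapped a promoter of *Hk1*, by the distance of its summit from the first TSS (x axis, kb); grey lines are the 10 TSSs and bars 95% exact Poisson intervals. In each list the peak near the TSS 39366 nt downstream is the highest, at 8.93, 14.3 and 9.72, and no other exceeds 6.23.

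*Hk2* (chromosome 6, 82725025 to 82774454, minus strand) had a pileup of 8.93 (5.46 to 13.8), 8.57 (5.90 to 12) and 7.19 (5.06 to 9.91) under NG, HG+NT and HG+miR-93. The values differed by less than their counting error. The fold was 3.31, 2.39 and 2.73, at percentiles of 96.7, 86.0 and 96.2. The NG summit fell 240 nt upstream of the TSS and the HG+NT summit 11 nt downstream in an untranslated exon. The HG+miR-93 summit lay in an intron, 353 nt upstream of another TSS.

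*Gapdh* encodes the glycolytic dehydrogenase that is widely used as a reference transcript, and lies on the minus strand of chromosome 6, from 125161715 to 125166467. The pileup was 10.3 (6.51 to 15.4), 9.09 (6.33 to 12.6) and 8.55 (6.21 to 11.5), so the 3 lists were close. The rank of *Gapdh* depended on the measure. By fold it stood at percentiles of 59.3, 52.2 and 42.5, and by pileup at 85.3, 87.3 and 90.6. The input's local mean at its summits was 4.6, 4.6 and 5.0, against a median of 2.0 over all promoters in each list, and a high input lowers the fold. All 3 summits fell in an intron.

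*Txnip* is on the plus strand of chromosome 3, from 96557957 to 96561883. The NG pileup of 14.3 (9.78 to 20.2) was, beside that of *Hk1* under HG+NT, the highest of the 10 genes in any list. It was 8.83 under HG+NT (6.11 to 12.3) and 7.58 under HG+miR-93 (5.39 to 10.4), and NG was again the highest, with overlapping intervals. The fold was nearly equal, at 2.18, 2.14 and 1.95, with a local mean of the input of 6.0 at the NG summit and of 3.6 and 3.4 at the others. By fold the percentiles were 70.4, 75.9 and 68.1, and by pileup 97.3, 86.3 and 85.7. The NG summit lay 154 nt upstream of the TSS and the other summits 33 and 41 nt downstream, so that the carbohydrate response element match at -85 to -69 shown above fell between them. An antisense transcript, Gm15441, overlaps this promoter, and DNase-Seq does not tell the strands apart.

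*Arrdc4* (chromosome 7, 68736995 to 68749241, minus strand) had a pileup of 11.2 under NG (7.23 to 16.5), 11.4 under HG+NT (8.30 to 15.3) and 8.75 under HG+miR-93 (6.38 to 11.7). NG and HG+NT were nearly equal. Its summits kept the same place more closely than those of any other of the 10 genes, 53, 84 and 39 nt upstream of a TSS. The fold was 3.04, 2.07 and 2.44, at percentiles of 94.3, 71.9 and 91.0. The low HG+NT value went with an input's local mean of 5.0 at that summit, against 3.0 at those of NG and HG+miR-93.

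The genes of the paired sensors differed in level. *Mlxip*, which encodes MondoA (chromosome 5, 123394798 to 123457932, plus strand), had a pileup of 9.38 (5.81 to 14.3), 10.6 (7.64 to 14.4) and 9.13 (6.71 to 12.1), with folds of 2.47, 3.07 and 2.67 at percentiles of 82.4, 96.9 and 95.6. The summits of *Mlxip* were 1 nt downstream and then at -104 and -139 nt. *Mlxipl*, which encodes ChREBP, the sensor of liver and fat (chromosome 5, 135089890 to 135138382, plus strand), had 4.91 (2.45 to 8.79), 4.15 (2.37 to 6.75) and 3.89 (2.37 to 6.0). Under HG+NT and HG+miR-93 the intervals of *Mlxip* and *Mlxipl* did not overlap, and under NG they did. The strongest *Mlxipl* peaks belonged to internal TSSs and had their summits 319, 1112 and 865 nt away from one. With the highest pileup taken in place of the highest fold, *Mlxipl* had 6.25 (3.42 to 10.5), 4.41 (2.57 to 7.07) and 4.86 (3.14 to 7.17), and the HG+miR-93 intervals of the genes then overlapped. That choice took *Mlxipl* under NG from percentile 66.3 to 0.939 by fold.

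*Mlxipl* has another start 17001 nt upstream in RefSeq. GENCODE also begins a transcript there, but does not class it as protein-coding, and the rule for the promoters leaves it out. Its window held a CACGTG at -98 to -93. The peak over it had a pileup of 5.36 under NG (2.77 to 9.36), 4.41 under HG+NT (2.57 to 7.07) and 3.50 under HG+miR-93 (2.07 to 5.53), with summits at -347, -26 and 154 nt. These values were also near the median promoter.

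**Figure D3:**
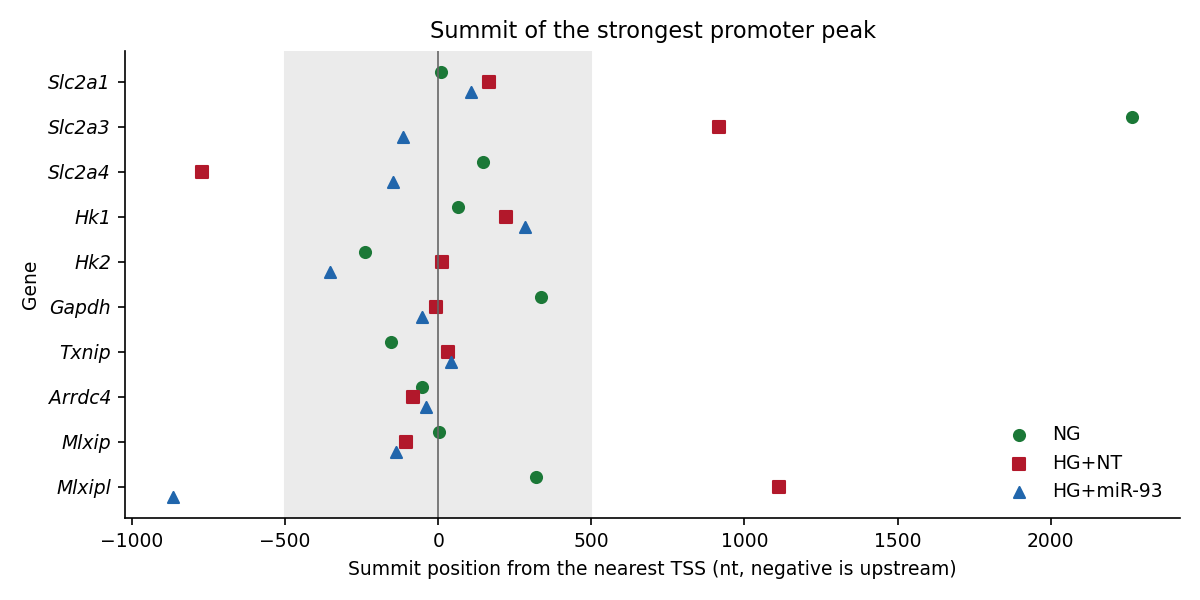
Position of the summit of the strongest promoter peak from the nearest TSS (x axis, nt, negative values upstream) for each gene under NG, HG+NT and HG+miR-93; the grey band is 500 nt on either side. Summits outside the band occur only at *Slc2a3*, *Slc2a4* and *Mlxipl*, from -865 to 2265 nt.

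Within 500 nt of a TSS lay the summits of 9 of the 10 genes under NG, 7 under HG+NT and 9 under HG+miR-93, against 61.2%, 57.8% and 57.1% of all genes. The median percentile by fold of the 10 genes was 76.4, 74.5 and 73.0, and that of all genes is close to 50 by construction. By pileup it was 78.4, 85.7 and 85.1. Both ranks favour genes with more TSSs, since the strongest peak is taken over all TSSs of a gene. The 10 genes have 40 TSSs, against 54374 for 21866 genes, and this was not corrected for. Per list, 9, 10 and 7 of the 10 genes ranked above 50 by fold. Base composition differed among the promoters: the GC content of the RefSeq windows ranged from 51.3% at the first start of *Hk1* to 69.3% at the upstream start of *Mlxipl*, with a median of 52.7% over all windows.

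**Figure D4:**
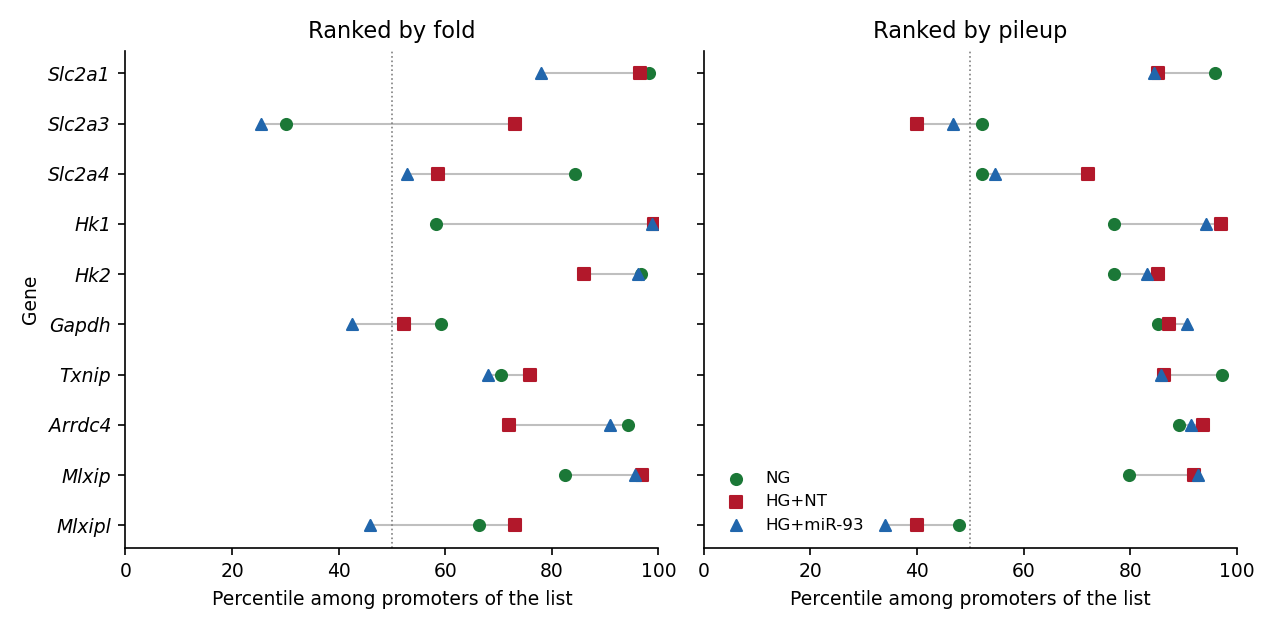
Percentile of each gene among the promoters of its list, ranked by the authors' fold (left) and by pileup (right), under NG, HG+NT and HG+miR-93; the dotted line is 50. By pileup *Slc2a3* and *Mlxipl* lie between 34.0 and 52.2, *Slc2a4* between 52.2 and 72.0 and the other 7 genes at 77.0 or above, whereas by fold the genes are spread from 25.5 to 99.2.

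The comparison of HG+NT with NG asked whether high glucose changes the accessibility of these promoters. The ratio of pileups was at least 1.5-fold higher at *Hk1*, 1.6 with an exact binomial 95% interval of 0.943 to 2.82, 1 of the 10 genes, where 7.73% of all genes passed. It was at least 1.5-fold lower at *Txnip*, 0.618 (0.37 to 1.03), and at *Slc2a1*, 0.64 (0.378 to 1.09), 2 of 10 where 19.5% of all genes passed. These shares are close to the background. Every interval of a ratio included 1, and only that of *Hk1* lay wholly above the median of all promoters, 0.904. No gene of the 10 had Poisson intervals that lay apart, against 0.719% of all genes apart and higher and 2.19% apart and lower. The other 7 ratios ran from 0.775 at *Slc2a3* to 1.21 at *Slc2a4*. The median over the 10 genes was 0.922.

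These calls depended on the scaling, the measure and the peak chosen. With the summit nearest to a TSS, *Hk1* was no longer past 1.5-fold and 0 genes were higher. By the authors' fold in place of the pileup, 0 genes were lower, with ratios of folds of 0.978 at *Txnip* and 0.831 at *Slc2a1*. With each pileup divided by the median of its chromosome, *Txnip* was at 0.75 and *Slc2a1* at 0.733, no longer past the threshold, and *Slc2a4* reached 1.5 beside *Hk1* at 1.83. On chromosome 6, where *Slc2a3*, *Hk2* and *Gapdh* lie, the median ratio of all promoters was 0.949.

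The comparison of HG+miR-93 with HG+NT asked what the miR-93 mimic does in high glucose. None of the 10 genes was 1.5-fold higher or lower, where 4.36% of all genes were higher and 9.02% lower. The ratio was 0.68 at *Hk1* (0.454 to 1.02), the farthest from 1, and 1.08 at *Slc2a3* (0.544 to 2.18), the only value above 1. In all, 9 genes thus had a lower pileup under HG+miR-93, as had 59.1% of all genes. Each of the 10 intervals included 1 and none of the Poisson intervals lay apart, against 0.426% of all genes apart and higher and 1.9% apart and lower. The median ratio was 0.858 over the 10 genes and 0.952 over all promoters.

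Between HG+miR-93 and NG, *Txnip* had a ratio of 0.53 (0.324 to 0.874) and *Slc2a1* of 0.551 (0.333 to 0.921). Both were past 1.5-fold lower, 2 of 10 genes where 24.5% of all genes passed, and their intervals left out 1, though not the median ratio of 0.87 over all promoters. No gene was 1.5-fold higher, against 6.35% of all genes. Poisson intervals of the separate pileups lay apart at none of the 10, against 0.33% of all genes apart and higher and 3.49% apart and lower. *Hk1* had the highest ratio, 1.09 (0.636 to 1.93). By the authors' fold in place of the pileup, the ratio was 0.893 at *Txnip*, no longer past the threshold, and 0.582 at *Slc2a1*. At *Hk1* it was 1.59 by fold, past 1.5-fold higher. The 3 comparisons share their lists, so that the low values of *Txnip* and *Slc2a1* against NG rest on the same NG peaks.

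**Figure D5:**
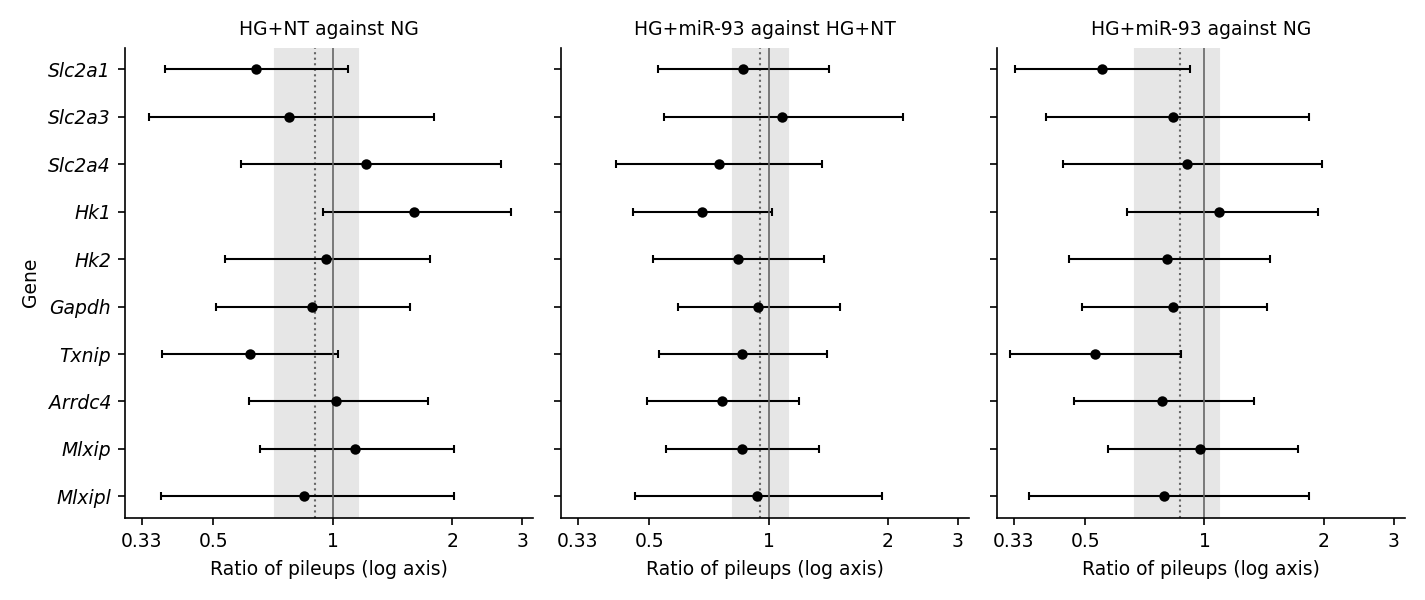
Ratio of pileups at the strongest promoter peak (x axis, log scale) for each gene in the 3 comparisons; bars are exact 95% intervals of counting error, dotted lines the median and grey bands the quartiles of all promoters. Intervals reach across 1 for all genes in the first 2 panels and leave it out only for *Txnip* and *Slc2a1* in the last, at 0.53 and 0.551.

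Of the other genes of glucose transport, glycolysis and its branches, 50 were listed, with 51 entries in the annotation since *Aldoa* has 2. Their median percentile by fold was 62.7 under NG, 55.8 under HG+NT and 45.9 under HG+miR-93. By pileup 10 of 51, or 19.6%, ranked above the 75th percentile in all lists, beside 14.1% of all genes. From NG to HG+NT, 3 were at least 1.5-fold higher and 13 lower, or 5.88% and 25.5%, beside 7.73% and 19.5% of all genes. Under HG+miR-93 against HG+NT, 3 were higher and 5 lower, or 5.88% and 9.8%, beside 4.36% and 9.02%. Against NG, 3 were higher and 15 lower, or 5.88% and 29.4%, beside 6.35% and 24.5%. The shares past 1.5-fold were near those of all genes. *Slc16a1*, which encodes the lactate transporter MCT1, had the highest mean percentile, with pileups of 6.70, 6.23 and 7.0. *G6pc3*, a glucose 6-phosphatase gene, had the lowest, with 5.36, 2.34 and 4.28.

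Poisson intervals lay apart, at a ratio past 1.5-fold, for 5 of these genes in at least 1 comparison. Per comparison and direction these were from 0 to 3 of 51 entries, at most 5.88%, where up to 3.49% of all genes were called, so the 5 genes are given as a description. For 4 of the 5 the intervals overlapped with another choice of peak. *Pkm*, which encodes pyruvate kinase, had 7.15 under NG, 4.67 under HG+NT (2.77 to 7.39) and 11.1 under HG+miR-93 (8.39 to 14.4). With its highest pileup in place of its highest fold the values were 11.2, 11.2 and 11.1. The difference was absent with this choice of peak. *Pgk1*, which encodes phosphoglycerate kinase on chromosome X, had 13.0 under NG (8.67 to 18.6), 6.49 under HG+NT (4.2 to 9.58) and 3.69 under HG+miR-93 (2.22 to 5.77). Its highest pileup under HG+miR-93 was 5.83 (3.93 to 8.32), still apart from NG. By fold, which is divided by the input, its strongest peaks had 1.99 under NG and 1.56 under HG+miR-93, less than 1.5-fold apart. Their summits were at -150 and 737 nt, so different places were compared. The X promoters as a whole had a median ratio of 1.05 between HG+miR-93 and NG.

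*Pfkfb2*, which encodes a kinase that sets fructose 2,6-bisphosphate, had 11.6 under NG (7.59 to 17), 3.38 under HG+NT (1.8 to 5.77) and 4.66 under HG+miR-93 (2.99 to 6.94), with summits at -1919, -237 and -6321 nt. By highest pileup these were 11.6, 7.27 (4.83 to 10.5) and 9.52 (7.04 to 12.6), and they overlapped. *Aldoc*, an aldolase gene, had 8.49 under NG (5.11 to 13.3) and 3.11 under HG+miR-93 (1.78 to 5.05), which overlapped at a highest pileup of 5.25 (3.46 to 7.63). *Gfpt1*, the gene of the enzyme that opens the hexosamine pathway, had 10.4 under HG+NT (7.42 to 14.1) and 4.47 under HG+miR-93 (2.83 to 6.71). Its highest HG+miR-93 pileup was 6.41 (4.41 to 9.01), again overlapping. *Pgk1* was hence the only gene of the 5 whose intervals lay apart under both choices of peak, under HG+miR-93 against NG. This holds for its pileup and not for its fold.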

How the data were processed

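DNase-Seq reads of 2 replicates per condition were trimmed by the authors with TrimGalore!, mapped to mm10 with Bowtie and cleared of duplicates, after base calling with CASAVA 1.8.2 per the labels. Peaks were called with MACS2 against the input by settings recommended for DNase-Seq, whose values are not given in the sources used here. Each deposited list is named a joint set of its condition, so replicates were probably pooled. The authors' fold is a ratio, treatment pileup plus 1 over local input mean plus 1. The deposited −log10 p is the Poisson probability of that pileup, and the deposited −log10 q, a score here, is its adjusted form.

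Fragments and local means were solved from fold and p, with local means taken as multiples of 0.02, which the values showed; 100.0% of peaks had a solution, and it was unique for 100.0% of them. The scales of the lists to the input were 0.446642, 0.259686 and 0.194337. The median summit held 6, 10 and 12 fragments. Intervals cover counting error only. Promoters reached 500 nt to each side of a TSS (GENCODE vM21 on GRCm38, which mm10 also is), an overlap was at least 1 bp, and the peak with the highest fold stood for the gene. Percentiles were ranks within a list over 21835 genes. A pileup ratio past 1.5-fold was counted. Steps were tested on simulated data.

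The genes, lists and settings were chosen with earlier results of these data known. All 10 genes are named; of the other pathway genes, those with intervals apart at 1.5-fold or more, and the highest and lowest by mean percentile. Single replicates, the RNA data and the authors' read counts at TSSs were not analysed here, and some marker genes are not reported here by name. Versions were matplotlib 3.10.9, scipy 1.17.1, pandas 2.3.3 and numpy 2.4.6, run in Python 3.11.15.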

Additional observations from a re-analysis of the deposited data

How the results depend on the processing

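No paired analysis was possible because each condition has 1 joint list of peaks, and for the same reason no replicate could be left out. Counts of genes past 1.5-fold among the 10 moved as follows. With the summit nearest to a TSS, 0 genes were higher under HG+NT than under NG, in place of 1. With pileups over the median of the list, 1 was lower in place of 2. Over the median of the chromosome, 2 were higher and 0 lower. With the fold in place of the pileup, 0 were lower under HG+NT than under NG, and 1, *Slc2a3*, was lower under HG+miR-93 than under HG+NT. For HG+miR-93 against NG, 1 was then higher, *Hk1*, and 1 lower, *Slc2a1*. The median percentile of the genes moved by more than 10 points, the limit set for it, in a few settings. It was 84.4 under HG+miR-93 with summits within 500 nt only, which left 8 genes, and 60.6 under HG+NT with a minimum −log10 p of 1, which also left 8. Ranked by pileup it was 85.7 under HG+NT and 85.1 under HG+miR-93. With 0 or 1 mismatches, 0 promoters held the carbohydrate response element, in place of 1. None of these counts moved beyond 1.5 times with promoters of 1000 nt, a covered share of 50% of the window or the highest pileup. The same held without the genes of chromosome 6, a setting chosen after seeing the data. Taking the solution with the most fragments was no test, since each strongest peak of the 10 genes had only 1 solution. Dividing all pileups of a list by its median leaves percentiles as they are. Of the 30 percentiles of single genes by list, 26 moved by more than 10 points in at least 1 setting. The other 4 were those of *Slc2a1* and *Arrdc4* under NG and of *Mlxip* under HG+NT and HG+miR-93.

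Pileups of 11 to 55 fragments stood behind the strongest peaks, and no value shows how far cultures of the same condition differ.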
